A study of Mus musculus with 23 samples.

Results

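Natural killer (NK) cells were taken from the 3 spleen libraries of single-cell RNA sequencing, 1 each from mice with wild-type (WT) Stat5b and from mice carrying the Y665H or Y665F change of the STAT5B protein, which replace the same tyrosine (Y) by histidine (H) or phenylalanine (F). They were selected on measured values. A droplet barcode was kept with at least 500 detected genes and at most 10% mitochondrial unique molecular identifiers (UMIs), and it was gated as NK with at least 1 UMI of Ncr1, at most 1 UMI over Cd3d, Cd3e and Cd3g together, no UMI of Cd8b1 and at most 1 UMI of Cd79a. The gate held 731 of 19566 kept spleen barcodes, which were 297 of 6743 in WT, 280 of 7876 in Y665H and 154 of 4947 in Y665F. The series holds 16 expression libraries with 139967 barcodes in all.

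Per the labels, all 3 spleen groups were C57BL/6 mice aged 2 months, male by the methods, and the WT group carried no edit. The Y665H allele was made by adenine base editing and the Y665F allele by Cas9 cutting with a donor oligonucleotide. The spleen labels do not give the zygosity of the mutant mice. The study isolated CD45+ cells of the spleen. Each genotype was 1 library. The legend of the spleen single-cell data gives a combined sample of 3 mice per group, although its wording for that panel names lymph nodes. Differences between mice, libraries and genotypes therefore cannot be told apart here, and no test between genotypes was made. Intervals on levels and ratios are exact 95% intervals of the UMI counts, and intervals on shares of barcodes are exact Clopper-Pearson intervals. They cover counting error only.

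NK cells are innate lymphocytes that kill infected or transformed cells by releasing granules of perforin and granzymes, and that secrete cytokines and chemokines. Their development and survival depend on interleukin-15, whose receptor, built with the beta and gamma chains shared with interleukin-2, signals through JAK1 and JAK3 to STAT5A and STAT5B. In the mouse spleen they pass from CD27-positive stages to CD27-negative stages that carry KLRG1 and CX3CR1, and individual cells express different sets of Ly49 receptors, encoded by the Klra genes. The replaced tyrosine lies in the SH2 domain of STAT5B, the part that binds phosphotyrosine.

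The edited codon and the designed oligonucleotides are shown because the groups differ by them. The codon of that tyrosine in Stat5b lies in exon 16 of 19, within the coding sequence, on the minus strand at chr11:100787291-100787293 (GRCm38, GENCODE vM21). The guide used for base editing lies on the opposite strand at chr11:100787287-100787309, with the PAM in capitals, and its base 7 faces the first base of the codon. The reference stretch below is read along the transcript with the codon in capitals, and the same stretch of the 133-base donor has its 2 changed bases in capitals.
Base editing guide: tgaggtaattcaggtcccccAGG
Reference, chr11:100787285-100787317: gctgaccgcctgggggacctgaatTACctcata
Y665F donor, same stretch: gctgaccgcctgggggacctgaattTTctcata
The expression matrices count whole genes, so the edited bases were not read in these cells.

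Stat5b itself was sparse in the gate. Levels are given as CPM, the counts scaled to a common total of the UMIs in the gate, and 3 values in a row are those of WT, Y665H and Y665F. Stat5b stood at 51.2, 48.3 and 44.8 CPM, from 76, 79 and 35 UMIs. Stat5a, its neighbour on the chromosome, stood at 18.2, 24.5 and 26.9 CPM. The intervals of the log2 ratios spanned 0 for both genes in both mutants, and ran from -0.81 to 0.40 for Stat5b in Y665F over WT and from -0.56 to 0.39 in Y665H over WT.

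The gate was checked against genes the selection did not use. Klrb1c, which encodes NK1.1, had a UMI in 94.9% of gated WT barcodes (interval 91.8 to 97.1), 93.2% of Y665H barcodes and 95.5% of Y665F barcodes. All 12 genes of an NK marker list were detected in each library, with summed levels of 21995, 18979 and 25110 CPM, against 75.3 to 153 CPM in spleen B cells of the same libraries. That list includes Ncr1, which the rules required in the gate and excluded from the B cells, so this member is no check. Type 1 innate lymphoid cells also carry Ncr1 and Klrb1c, and all 12 genes of a list for them were detected, at summed levels of 305, 262 and 465 CPM. The B cells gave 367, 387 and 406 CPM for that list, so its sum does not tell such cells in the gate from other RNA. Cd200r1 stood between 4.04 and 8.56 CPM and Cxcr6 between 7.69 and 12.2 CPM. Il7r, the only member with a mean of at least 50 CPM, had a log2 ratio of 0.33 in Y665F over WT. The members Tmem176a and Tmem176b are given under the other observations. The share of such cells in the gate was not tested.

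The edges of the gate were populated in every library. Exactly 1 Ncr1 UMI was seen in 36 gated barcodes of WT, 31 of Y665H and 12 of Y665F, around a median of 4 in each library, and exactly 1 Cd3 UMI in 46, 58 and 22. Just outside, 15, 13 and 8 kept barcodes had Klrb1c but no Ncr1 and passed the other limits, and their Prf1 stood at 584, 704 and 972 CPM, where the gate had 888, 950 and 1235 CPM. A further 8, 12 and 0 barcodes with Ncr1 missed the gate at exactly 2 Cd3 UMIs.

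Gated barcodes held medians of 4681 UMIs in WT, 5210.5 in Y665H and 4673 in Y665F, and 1485039, 1635094 and 780620 UMIs in all. One UMI was thus worth 0.673, 0.612 and 1.28 CPM, and the Y665F values are the least precise. The libraries shared 7 to 18 barcode sequences per pair, and no gated barcode. RNA of other cells was present, and unevenly so. The 10 neutrophil markers summed to 2589, 4759 and 384 CPM, and 1 barcode held 99.0% of the WT sum and 88.6% of the Y665H sum. The 12 B markers summed to 665.3, 1460 and 379 CPM, and the 9 monocyte and macrophage markers to 52.5, 522 and 15.4 CPM, with 6, 1 and 6 of the 9 at 0. The 11 T markers summed to 725, 824 and 347 CPM, with Cd8b1 at 0 in all by the rule and Cd5 and Cd6 also at 0 in Y665F. The dendritic, erythroid and platelet, and plasma lists summed to at most 175 CPM in any library.

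NK cells took 4.40% of kept spleen barcodes in WT (interval 3.93 to 4.92), 3.56% in Y665H (3.16 to 3.99) and 3.11% in Y665F (2.65 to 3.64). The WT interval lay above the Y665F interval and overlapped the Y665H interval. A share depends on the number of all other cells too, and CD45+ isolation preceded it. The study also measured spleen NK cells by flow cytometry in replicate mice of each genotype. It reported no significant difference in their numbers between either mutant and WT. The shares here have no replicates to set against that result. Without any Cd3 or Cd79a UMI allowed, the shares were 3.26% (2.85 to 3.71), 2.48% (2.14 to 2.84) and 2.59% (2.16 to 3.07), and the WT and Y665F intervals overlapped. They also overlapped at no more than 5% mitochondrial UMIs, at 4.66% (4.15 to 5.21) and 3.73% (3.16 to 4.36), so the separation of WT and Y665F depended on these filters. The WT and Y665H intervals lay close to each other's bounds and were apart in 4 other settings, that without Cd3 or Cd79a among them.

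The first comparison asked how the Y665F gate differed from the WT gate. Cx3cr1, Gzmb, Klrg1, Cma1 and Irf8, which belong to a list of late NK maturation, stood higher in Y665F, as did Bcl2 and cell cycle genes carried by few barcodes. Of that maturation list, 5 of 14 tested genes had a log2 ratio below 0, Ly6c2 and S1pr5 among them. Cd27 and several Ly49 receptor genes stood lower. Of 3307 genes with a mean of at least 50 CPM over the 3 libraries, 24 (0.726%) were at least 2-fold higher in Y665F than in WT and 25 (0.756%) at least 2-fold lower, on the scale of log2(CPM + 10). Among the 24, Cx3cr1, Mki67, Top2a, Hist1h1b, Hist1h2ae, Hist1h2ap and Hist2h2ac reached that mean only through their Y665F level. A higher value was bound to appear for these genes once they were tested. The median log2 ratio of all 3307 genes was -0.06, and 1978 of them lay below 0. Of the 25 lower genes, 12 were markers of other cell types or of left-out gene classes, such as neutrophil and immunoglobulin genes, and those genes are not described as NK genes here.

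**Figure D1:**
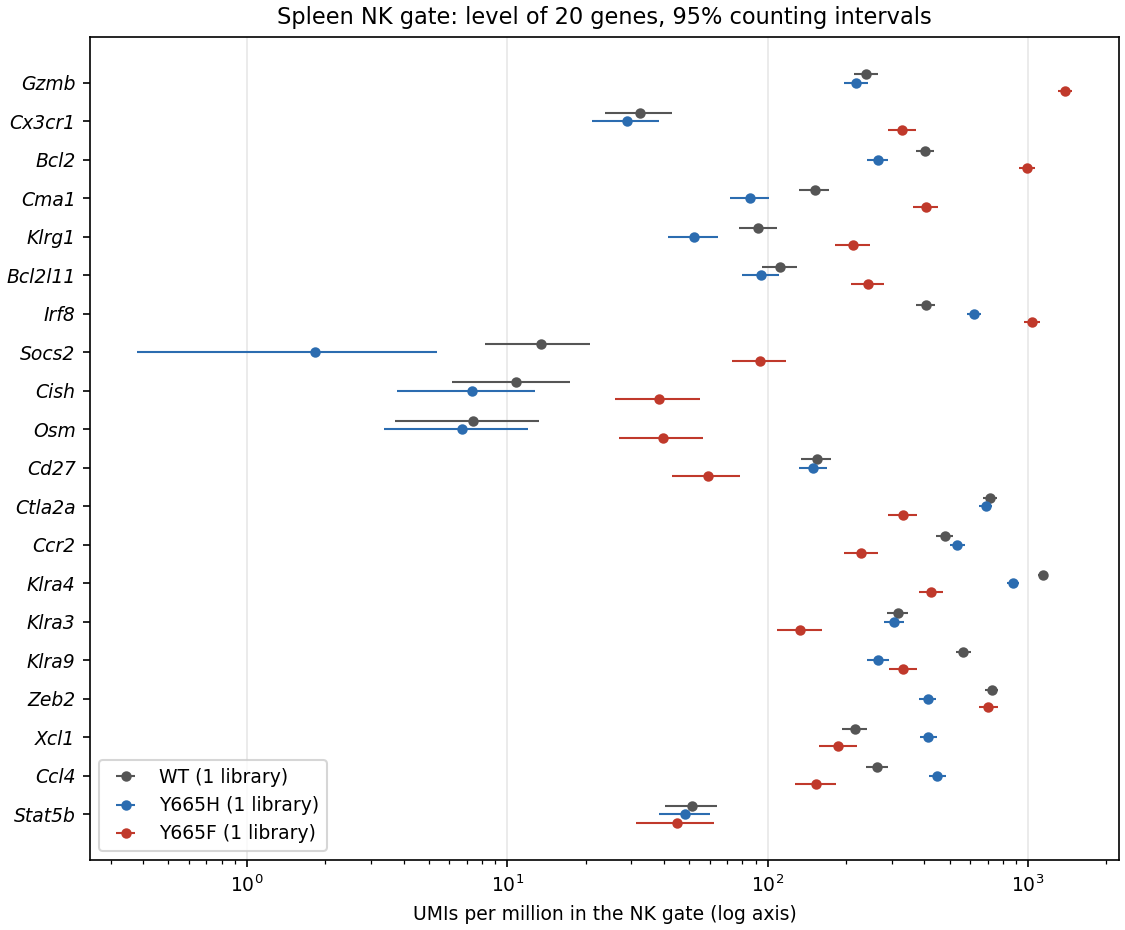
Levels of 20 genes in the NK gate, in CPM on a log axis, with 1 point for each spleen library and lines for exact 95% counting intervals. Gzmb, Cx3cr1 and Bcl2 lie higher in Y665F than in both other libraries, and Cd27 and Klra4 lie lower.

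The mature NK list gave 5 of 14 tested genes past 2-fold higher in Y665F and none lower, with 5 members below 0 and a median log2 ratio of 0.21 (range -0.61 to 3.0). One of the 5 higher genes, Cx3cr1, reached the mean of 50 CPM only through its Y665F level, so that a difference was bound to appear once it was tested. Cx3cr1, the fractalkine receptor of mature NK cells, stood at 32.3 (interval 23.8 to 42.9), 28.7 and 329 CPM. Its UMIs came from 28, 22 and 77 barcodes, so the Y665F level stood far apart from both others and was spread over many barcodes. The log2 ratio of Y665F over WT was 3.0, and the interval of the ratio of UMIs, which uses no pseudocount, was 2.90 to 3.82. Klrg1, an inhibitory receptor for cadherins, stood at 92.3, 52.0 and 213 CPM, with a log2 ratio of 1.12 (interval 0.87 to 1.54). Klrg1 was at 0.74, short of 2-fold, when barcodes were thinned to 2000 UMIs before the gate. Cma1, a chymase, stood at 152, 85.6 and 406 CPM and had a log2 ratio of 1.37 (interval 1.17 to 1.68). Both were lowest in Y665H and highest in Y665F.

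Irf8, a transcription factor of the interferon regulatory factor family, was at 405, 619 and 1039 CPM. It was thus above WT in both mutants, with log2 ratios of 1.34 (interval 1.21 to 1.51) in Y665F and 0.60 (0.47 to 0.76) in Y665H. The B cells of the same libraries held 366 CPM in WT and 370.2 CPM in Y665F. Gzmb, the fifth, is given with the granule genes, and the remaining members of the mature list did not pass 2-fold. Itgam, which encodes CD11b, stood at 252, 245 and 243 CPM, and Zeb2, a transcription factor of terminal maturation, at 725, 413 and 705 CPM. Ly6c2 and the egress receptor S1pr5 stood lower in Y665F than in WT, at log2 ratios of -0.61 and -0.26.

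The immature NK list gave no gene higher and 2 of 12 tested genes past 2-fold lower in Y665F, with a median of -0.25. Cd27, a receptor of the tumour necrosis factor family that marks the earlier stages, stood at 154, 149.8 and 58.9 CPM, from 229, 245 and 46 UMIs. WT and Y665H were alike within counting error and Y665F was below both, at a log2 ratio of -1.25 (interval -1.88 to -0.93). Ctla2a, a protease inhibitor, stood at 714, 689 and 331 CPM, with a log2 ratio of -1.09 (interval -1.31 to -0.91), and 37.3% of its 31-base words also occur in other genes. Tcf7, a transcription factor of early lymphocytes, stood at 166, 199.99 and 94.8 CPM, a log2 ratio of -0.75 that did not reach 2-fold. Kit and Il7r were not lower, at log2 ratios of 0.19 and 0.33. T cells also express Cd27 and Tcf7, and the T markers of the gate moved the same way (725, 824 and 347 CPM). With no Cd3 and no Cd79a UMI allowed, the log2 ratio of Cd27 was -1.05 and that of Ctla2a -0.92.

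Of the cytotoxic granule list, 1 of 14 tested genes was past 2-fold higher, none was lower, and the median was 0.18. Gzmb, which encodes granzyme B, a protease that triggers death of the target cell, stood at 238 (interval 214 to 265), 219.6 and 1391 CPM. WT and Y665H had overlapping intervals, and Y665F was higher by a log2 ratio of 2.50 (interval 2.37 to 2.72). Gzma, which encodes granzyme A, stood at 8950, 7126 and 12534 CPM, a log2 ratio of 0.49 in Y665F and -0.33 in Y665H. Prf1, which encodes perforin, stood at 888, 950 and 1235 CPM, and Nkg7, a granule membrane protein, at 2555, 2399 and 3411 CPM. Their ratios over WT in Y665F, 0.47 and 0.42, were above 0 by their intervals and below 2-fold. Fasl stood at 143, 152 and 183 CPM, and Ctsw, a cathepsin of cytotoxic cells, at 599, 550.4 and 503 CPM.

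Genes known as STAT5 targets in lymphocytes were measured as a list of 19, of which 10 passed the filter on low levels. Of the 10, 2 were past 2-fold higher in Y665F, Gzmb and Bcl2, none was lower, and the median was 0.15. Bcl2, which blocks mitochondrial apoptosis, stood at 403, 265 and 992 CPM. Its level was therefore below WT in Y665H, at a log2 ratio of -0.59 (interval -0.79 to -0.42), and above WT in Y665F, at 1.28 (1.14 to 1.46). Ccnd2, which encodes cyclin D2, stood at 498, 459 and 837 CPM, with a log2 ratio of 0.74 in Y665F. Pim1, Mcl1, Id2, Il2rb and Ccnd3 had log2 ratios between -0.13 and 0.20 in Y665F.

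The feedback inhibitors of cytokine signalling were too low for that filter and are given by their UMIs. Socs2 had 20 UMIs in WT, 3 in Y665H and 73 in Y665F, which was 13.5, 1.83 and 93.5 CPM. The raw log2 ratio over WT was 2.80 in Y665F (interval 2.07 to 3.59) and -2.88 in Y665H (-5.27 to -1.12), so the 2 mutants lay on opposite sides of WT. Cish had 16, 12 and 30 UMIs, with a raw log2 ratio of 1.83 in Y665F (interval 0.91 to 2.81) and of -0.55 in Y665H, whose interval spanned 0. Osm, which encodes the cytokine oncostatin M, had 11, 11 and 31 UMIs. Socs1 had 43, 66 and 42 UMIs and a raw log2 ratio of 0.89 in Y665F. Il2ra, with 5, 11 and 9 UMIs, was near the detection limit in all 3 libraries.

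A second list of 22 genes was drawn up for STAT5 in T cells of the study. Only 4 of them passed the filter, of which Gzmb was past 2-fold higher in Y665F, none was lower, and the median was 0.27. Il12rb2, a chain of the interleukin-12 receptor, stood at 70.03, 76.5 and 115 CPM, and Xdh and Bhlhe40 had log2 ratios of -0.11 and -0.14. Cdk6 had 49, 46 and 59 UMIs, a raw log2 ratio of 1.20 in Y665F over WT. The list leaves out Irf8, Nkg7 and Il2rb, which the study also names as induced or bound by STAT5B. These genes passed the filter, and of them Irf8 was past 2-fold higher in Y665F, at 1.34, while Nkg7 and Il2rb were not.

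Promoters were searched for the letters bound by STAT5, TTCNNNGAA, which read the same on both strands. RefSeq windows of 250 bases before to 50 after the first listed start of a gene were used (GRCm38.p6), and 2288 of 27025 promoters (8.47%) held a match. Of the STAT5 target list, 14 of 19 genes had a window and 4 of them a match, namely Cish, Gzmb, Lta and Socs3. Of the 12 genes named as higher in Y665F, 7 had a window and 2 a match, Gzmb and Irf8, and of the 9 named as lower, 8 had a window and 1 a match, Ctla2a. The Cish and Irf8 windows are shown as examples of windows that hold 2 matches (capitals), which those of Lta and Klra7 also did. The Cish pair begins at bases 0 and 11 and the Irf8 pair at bases -171 and -153 from the start. The matches are letters only, and binding was not measured in NK cells. The study mapped STAT5B binding in stimulated spleen T cells, with Cish shown and Irf8 named among genes with binding nearby. Whether the matches lie within those bound sites was not tested.
Cish, chr9:107296629-107296688: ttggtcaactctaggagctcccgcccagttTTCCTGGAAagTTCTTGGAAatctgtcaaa
Irf8, chr8:120736168-120736227: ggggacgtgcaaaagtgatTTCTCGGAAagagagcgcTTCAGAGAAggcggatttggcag

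Of 14 BCL2 family genes, 4 passed the filter, and Bcl2 and Bcl2l11 were past 2-fold higher in Y665F. Bcl2l11 encodes BIM, which promotes apoptosis and is held by BCL2, and it stood at 112, 94.2 and 243 CPM, a log2 ratio of 1.06 (interval 0.81 to 1.43). Both the protective and the death-promoting gene were therefore higher in Y665F. Mcl1, which NK cells need for survival, stood at 304, 323 and 315 CPM, and Bax at 103, 121 and 137 CPM.

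**Figure D2:**
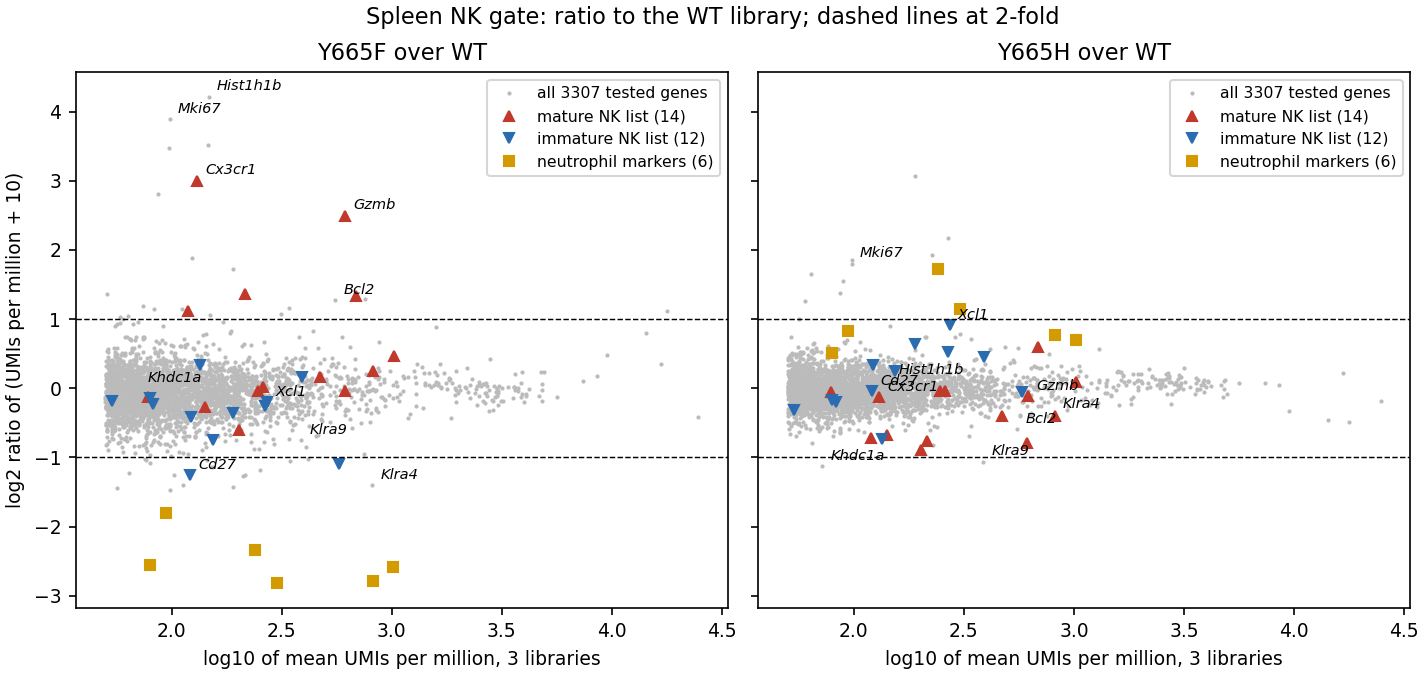
Log2 ratio of CPM + 10 over WT in the NK gate against the log10 of the mean CPM of the 3 libraries, for Y665F (left) and Y665H (right), with all 3307 tested genes in grey, the mature list, immature list and neutrophil markers as triangles pointing up, triangles pointing down and squares, and dashed lines at 2-fold. In Y665F, Cx3cr1 (3.0) and Gzmb (2.50) lie above the upper line, and Klra4 (-1.40), Cd27 (-1.25) and all 6 neutrophil markers lie below the lower one, while in Y665H few genes lie outside the lines. In WT, 1 barcode held 99.0% of the UMIs of the 10 listed neutrophil markers.

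Receptor genes were counted against the 1978 of 3307 genes below 0. Of 13 tested activating receptors, 11 had a log2 ratio below 0 and 1 was past 2-fold lower, with a median of -0.34. Of 11 tested inhibitory receptors, 7 were below 0, a share near that of all genes, 2 were past 2-fold lower and Klrg1 was past 2-fold higher, with the same median of -0.34. Klra4, which encodes the activating receptor Ly49D, stood at 1142, 876 and 425 CPM, a log2 ratio of -1.40 (interval -1.60 to -1.25). Klra8, which encodes Ly49H, the activating receptor for a cytomegalovirus protein, stood at 997, 751 and 509 CPM, at -0.96. Among the inhibitory Ly49 genes, Klra3 stood at 316, 307 and 133 CPM, at -1.19, and Klra1 at 109, 70.3 and 48.7 CPM, at -1.02. Klra1 was at -0.28 when barcodes were thinned before the gate, which ended its 2-fold difference. Klra9 and Klra7 were at -0.75 and -0.55. The Klra genes lie side by side on chromosome 6 and resemble each other, and between 7.63% (Klra1) and 57.8% (Klra9) of their 31-base words occur in other genes, so that counts of single members are uncertain.

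Klrb1b, which encodes an inhibitory receptor of the NK1.1 family, stood at 141, 89.9 and 283 CPM, a log2 ratio of 0.95 in Y665F. The lectin receptor genes Klrk1, Klrd1 and Klre1 had ratios of -0.43, -0.34 and -0.25. Fcgr3, the Fc receptor CD16, had 86, 91 and 18 UMIs (raw log2 ratio -1.33 in Y665F), Slamf6 had 54, 88 and 5 UMIs (-2.51) and Crtam had 57, 114 and 12 UMIs (-1.32), all too low for the filter. B cells held 173 CPM of Slamf6 in WT, and the B markers of the gate moved the same way. Its part in the Slamf6 value was not tested. The adaptors that carry receptor signals moved little. None of 14 tested was past 2-fold, and the median was -0.13. Syk was lowest at -0.60 and Cd247, the zeta chain, highest at 0.49.

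No tested receptor or kinase upstream of STAT5 was past 2-fold from WT in either mutant. Il7r had log2 ratios of 0.33 in Y665F over WT, -0.74 in Y665H over WT and 1.07 in Y665F over Y665H. Il2rb stood at 982, 1114 and 1043 CPM and Il2rg at 327, 317 and 346 CPM, and the interval of the Y665F ratio spanned 0 for both. None of 13 tested cytokine receptors passed 2-fold in either direction, with a median of 0.01, and Ifngr1, at 552, 558 and 835 CPM, and Il12rb2 had ratios of 0.59 and 0.65 in Y665F. All 7 tested JAK and STAT genes had a ratio below 0 in Y665F, as did 1978 of all 3307 genes, and none passed 2-fold, with a median of -0.25. Stat4, which transmits interleukin-12 signals, stood at 510.4, 436 and 279 CPM, at -0.85 (interval -1.09 to -0.65), and Jak1 at -0.25.

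Of 17 tested NK transcription factors, Irf8 was past 2-fold higher in Y665F and none lower, with a median of -0.13. Eomes, which with Tbx21 sets NK identity, stood at 540.1, 484 and 329 CPM, a log2 ratio of -0.70 (interval -0.92 to -0.51), whereas Tbx21 stood at 197, 145 and 188 CPM. Tox, needed early in NK development, stood at 72.7, 116 and 40.99 CPM, above WT in Y665H and below it in Y665F. Myb had 56, 144 and 12 UMIs and so followed the same order, with raw log2 ratios of 1.22 in Y665H and -1.29 in Y665F. Id2, Runx3, Ets1 and Prdm1 had Y665F ratios between -0.13 and -0.04.

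Homing genes gave 1 of 16 tested past 2-fold higher, Cx3cr1, which was tested only through its Y665F level, and 1 lower, Ccr2, with a median of -0.25. Ccr2, a receptor for monocyte chemoattractant proteins, stood at 479, 536 and 229 CPM, at -1.03 (interval -1.31 to -0.82). It was at -0.78 with no Cd3 and no Cd79a UMI and at -0.66 without barcodes that had a Cx3cr1 UMI, both short of 2-fold. The integrin gene Itga2, which encodes CD49b, stood at 346, 336 and 193 CPM, with a ratio of -0.81. Cxcr3 had 75, 75 and 19 UMIs. Itgb2 and Itgal, the chains of LFA-1, had ratios of 0.15 and -0.10.

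Secreted factors differed gene by gene. None of 6 tested cytokines and chemokines passed 2-fold in Y665F over WT, and the median was -0.30. Ccl5 stood at 12390, 8973 and 21525 CPM, with ratios of 0.80 (interval 0.77 to 0.83) in Y665F and -0.47 (-0.50 to -0.43) in Y665H. Ccl4 stood at 263, 449 and 154 CPM, the opposite order. Ifng stood at 100.3, 67.9 and 67.9 CPM.

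Of the other named genes, S100a4, a calcium-binding protein, stood at 94.3, 142 and 333 CPM, a log2 ratio of 1.72, and 49.2% of its 31-base words are shared with other genes. Zfp512, a zinc finger gene, stood at 135, 159 and 44.8 CPM (-1.41), Anxa1, which encodes annexin A1, at 196, 177 and 83.3 CPM (-1.14), and Camk2n1, an inhibitor of calmodulin kinase, at 112, 80.7 and 47.4 CPM (-1.09). In 1 barcode each lay 14.4% of the WT and 23.2% of the Y665H UMIs of Anxa1. Its ratio fell short of 2-fold, at -0.90, with no Cd3 and no Cd79a UMI. It was at -0.88 both when barcodes were thinned before the gate and without those over 3 times the median UMIs.

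Cell cycle and histone genes gave the highest ratios of all and rested on few barcodes. Hist1h1b, a linker histone, stood at 12.8, 14.7 and 414 CPM, Mki67, the Ki-67 antigen of dividing cells, at 6.73, 48.3 and 238 CPM, and Top2a, a DNA topoisomerase, at 17.5, 61.2 and 182 CPM. Of the 323 Hist1h1b UMIs in Y665F, 125 came from 1 barcode, and of its 186 Mki67 UMIs 65 did. At least 5 UMIs over 12 cycling and histone genes were seen in 1 of 297 WT barcodes (0.337%, interval 0.00852 to 1.86), 6 of 280 in Y665H (2.14%, 0.790 to 4.61) and 6 of 154 in Y665F (3.90%, 1.44 to 8.29). The WT and Y665F intervals overlapped. Without these barcodes, a setting added after the values were seen, the Y665F log2 ratio went from 4.22 to 0.39 for Hist1h1b, from 3.89 to 0.14 for Mki67 and from 2.80 to -0.24 for Top2a, and 14 in place of 24 genes were past 2-fold higher. Hist1h1b, Mki67, Top2a, Hist1h2ae and Hist1h2ap are among the 12 genes that defined these barcodes. Their fall, and with it part of the lower count, therefore follows from the selection and is no separate result. Mki67, Top2a, Hist1h1b, Hist1h2ae, Hist1h2ap and Hist2h2ac averaged under 50 CPM over WT and Y665H and were tested only through their Y665F level. The histone genes Hist1h2ap, Hist1h2ae and Hist2h2ac and the tubulin regulator Stmn1, named with ratios of 3.51, 3.48, 1.37 and 1.89, were at 0.10 to 0.78 without them. Of their 31-base words, 93.4%, 47.9%, 52.7% and 22.4% occur in other genes, so that counts of these single genes are uncertain. Gzmb, Cx3cr1 and Bcl2 were at 2.57, 3.04 and 1.39 without the same barcodes.

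The second comparison set Y665H against WT, with the WT library shared by both comparisons, and fewer genes stood apart. Of 3307 genes, 12 (0.363%) were past 2-fold higher and 2 (0.0605%) past 2-fold lower, with a median log2 ratio of -0.02. These counts depended on the gate, with 3 higher and 7 lower when Klrb1c took the place of Ncr1, and 4 higher when barcodes were thinned before the gate or when those over 3 times the median UMIs were left out. Of the 12, 6 were markers of other cell types. The rule for named genes left 4 of the 12, Mki67, Top2a, Lgals3 and Nrgn, and both lower genes, Khdc1a and Klra9. Lgals3 and Nrgn averaged under 50 CPM over WT and Y665F and were tested only through their Y665H level, so that their difference is a description.

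Klra9, which encodes the Ly49I inhibitory receptor, stood at 566, 266 and 332 CPM. Both mutants were below WT, with a Y665H log2 ratio of -1.06 (interval -1.26 to -0.92). Khdc1a, a gene of an RNA-binding domain family, stood at 89.6, 35.5 and 89.7 CPM, at -1.13 in Y665H, with 57.7% of its 31-base words shared with other genes. Nrgn, which encodes neurogranin, stood at 34.3, 78.9 and 56.4 CPM. All 3 fell short of 2-fold when barcodes were thinned before the gate, with log2 ratios of -0.92 for Klra9, -0.80 for Khdc1a and 0.76 for Nrgn, and Klra9 was also at -0.91 with no Cd3 and no Cd79a UMI. Mki67 and Top2a were at 1.80 and 1.37 in Y665H, and 49 of the 79 Mki67 UMIs came from 1 barcode. Without the cycling barcodes, which these genes helped to define, they were at 0.55 and 0.17.

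Lgals3, which encodes galectin-3 and is abundant in macrophages, stood at 29.0, 83.8 and 67.9 CPM. In Y665H 42 of its 137 UMIs lay in 1 barcode, and the gate of that library had 9 barcodes with at least 10 UMIs of S100a8 and S100a9 together, 10 of Lyz2 or 20 of Cd74, against 2 in WT and 1 in Y665F. Without these barcodes its log2 ratio was -0.13 and 5 in place of 12 genes were past 2-fold higher. Y665F over WT then had 28 genes higher and 18 lower in place of 24 and 25, and Y665F over Y665H 28 lower in place of 39. That setting was added after the values were seen.

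Of 14 tested genes of the mature list, 12 had a ratio below 0 in Y665H, as did 1759 of all 3307 genes, and none passed 2-fold. The median of the list was -0.26, where that of all genes was -0.02. Ly6c2 was at -0.89 (interval -1.17 to -0.70), Zeb2 at -0.80 (-0.95 to -0.67), Cma1 at -0.76 (-1.14 to -0.51), Klrg1 at -0.72 (-1.24 to -0.43) and S1pr5 at -0.67 (-1.01 to -0.44). Gzmb and Cx3cr1 had ratios of -0.11 and -0.13, with intervals that spanned 0, and Irf8 alone was above 0 by its interval.

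The immature list had a median of 0.11 in Y665H, with 6 of 12 tested genes above 0 and 6 below. Xcl1, a chemokine that attracts cross-presenting dendritic cells, stood at 216, 414 and 187 CPM, at 0.91 (interval 0.74 to 1.13), and Ltb, which encodes lymphotoxin beta, at 169, 269 and 129 CPM, at 0.64. With Klrb1c in place of Ncr1 in the gate, Xcl1 was at 0.54, below that interval. B cells of WT held 976 CPM of Ltb, and the B markers of the Y665H gate were at 1460 CPM where WT had 665.3 CPM. The part of that RNA in the Ltb value was not tested. Xcl1 was at 0.94 CPM in the WT B cells. Ccl4 was at 0.75 and Il7r, the interleukin-7 receptor, at -0.74.

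In Y665H, 1 of 11 tested inhibitory receptors was past 2-fold lower, Klra9, and none of 13 activating receptors passed 2-fold in either direction, with medians of -0.22 and -0.19. The cytotoxic list had a median of -0.01, the STAT5 target list -0.11 (0.13 when barcodes were thinned before the gate), the JAK and STAT list -0.12, the cytokine receptors 0.02, the adaptors 0.02, the transcription factors -0.14 and the homing list -0.02, and none of their tested members passed 2-fold. The cytokine and chemokine list had a median of 0.39 over 6 tested genes.

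Set directly against each other, Y665F was past 2-fold higher than Y665H in 28 of 3307 genes (0.847%) and lower in 39 (1.18%), with a median of -0.05. Genes tested only through their Y665F level, such as Cx3cr1 and Mki67, are among the 28. Of the mature list, 4 of 14 tested genes were past 2-fold higher in Y665F and 12 lay above 0 (median 0.60), where 1383 of all 3307 genes did. One of the 4 was Cx3cr1, tested only through its Y665F level. Of the immature list 5 of 12 were past 2-fold lower and 1 higher (median -0.77). Bcl2 differed by a log2 ratio of 1.87 and Gzmb by 2.61. Both tested T markers, Trbc1 and Trbc2 (log2 ratios -1.21 and -1.47), all 5 tested B markers and all 6 tested neutrophil markers were also past 2-fold lower in Y665F than in Y665H. Their part in the values of the immature list was not tested. The B marker H2-Ab1 was tested only through its Y665H level.

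Detection was measured after thinning each barcode to 2000 UMIs, which left 293, 277 and 153 barcodes and left out 4, 3 and 1 shallower ones. At few UMIs of a gene per barcode, a rise within each barcode also raises the share with a UMI. A higher share alone therefore does not tell more expressing barcodes from more UMIs per barcode. Gzmb was then detected in 28.3% of WT barcodes (interval 23.2 to 33.9), 28.9% of Y665H barcodes and 78.4% of Y665F barcodes (71.1 to 84.7). Before thinning these were 47.1%, 43.2% and 88.3%. At most 0.163% of B cells thinned in the same way had Gzmb. Detection of Gzmb was thus broad in the Y665F gate.

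Cx3cr1 was found in 5.80%, 5.05% and 38.6% of thinned barcodes, and before thinning in 28 of 297, 22 of 280 and 77 of 154. Bcl2 was found in 47.4%, 38.3% and 85.6%, against a background of 26.1%, 23.5% and 22.0% in B cells, which express the gene. Klrg1 was found in 18.1%, 11.6% and 30.7%, Cma1 in 25.3%, 18.4% and 49.0% and Socs2 in 2.73%, 0.722% and 20.9%. Each of these was highest in Y665F.

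Cd27 was found in 29.0%, 23.8% and 11.8% of thinned barcodes, with 3.41% to 5.30% in B cells, and Klra4 in 55.3%, 49.1% and 25.5%. Klra9 was found in 48.1%, 26.4% and 30.7%, and was therefore undetected in more barcodes in both mutants. Xcl1 was found in 23.9%, 35.7% and 15.7%. Ccl4 was found in 23.2%, 23.8% and 18.3%, from 144, 260 and 44 thinned UMIs. Its higher level in Y665H than in WT thus came with more UMIs per barcode at a similar share of barcodes. Klra8 was found in 58.0%, 46.9% and 41.2%, Ctla2a in 58.7%, 56.0% and 32.7% and Ccr2 in 51.9%, 56.3% and 29.4%.

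**Figure D3:**
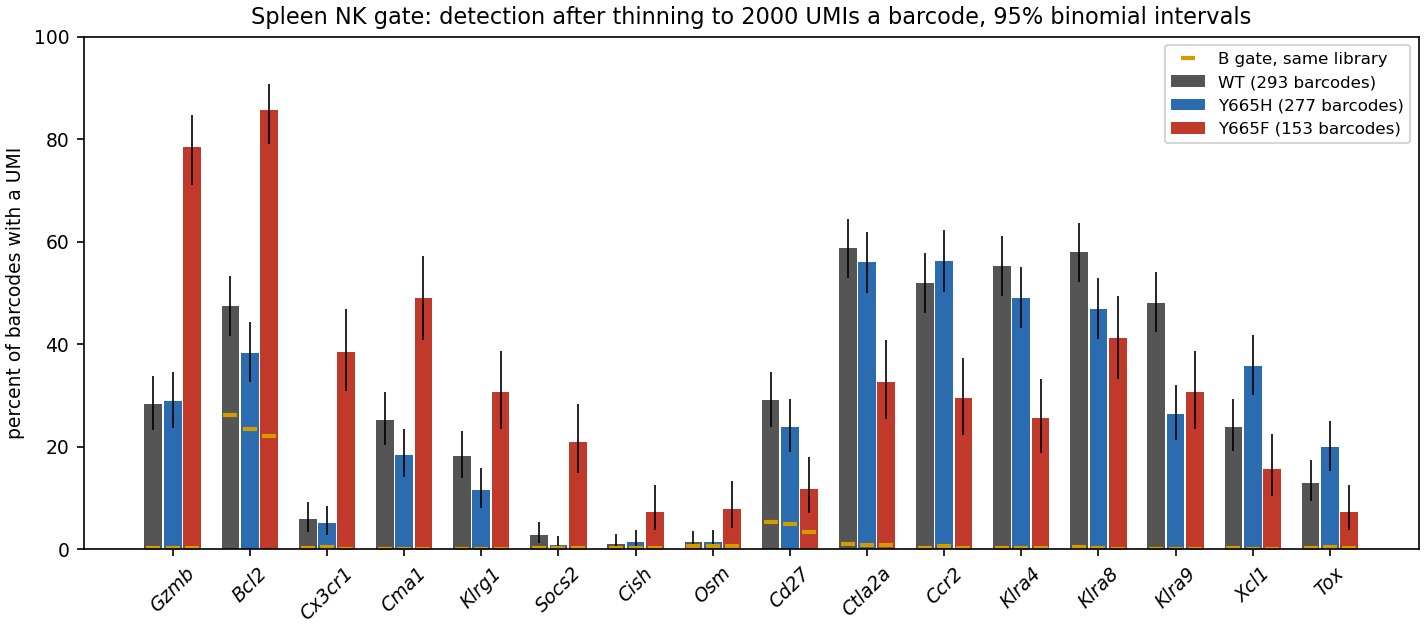
Percentage of NK-gated barcodes, each thinned to 2000 UMIs, with at least 1 UMI of a gene in the 3 spleen libraries, with exact 95% binomial intervals as lines and the B gate of the same library as a short bar. Gzmb is seen in 28.3% of WT and 78.4% of Y665F barcodes, and Cd27 in 29.0% and 11.8%.

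Barcodes were also sorted by Cd27 and Itgam, the pair used to stage mouse NK cells. After thinning, Cd27 without Itgam was seen in 20.5% of WT, 17.0% of Y665H and 9.80% of Y665F barcodes, both genes in 8.53%, 6.86% and 1.96%, and Itgam without Cd27 in 28.3%, 30.7% and 32.7%. In 42.7%, 45.5% and 55.6% neither was seen, so many barcodes could not be staged at this depth. The unthinned shares with Itgam alone were 34.7%, 31.8% and 46.1%. The lower Cd27 share in Y665F was therefore not matched by an equal gain of detected Itgam.

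Summed over lists, the median thinned barcode held 10 UMIs of the mature list in WT, 8 in Y665H and 16 in Y665F, and 4, 5 and 2 UMIs of the immature list. The cytotoxic list gave medians of 34, 29 and 47 UMIs. The 10th to 90th percentiles of the mature list, 4 to 20 in WT and 5 to 29 in Y665F, overlapped widely. The sums weigh genes by their UMIs and hold the 5 mature-list genes already past 2-fold in Y665F. Gzmb alone had 128 thinned UMIs in 293 WT barcodes and 480 in 153 Y665F barcodes. The sums are therefore no separate sign of a shift of the whole list, of which 5 of 14 tested genes had a log2 ratio below 0.

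**Figure D4:**
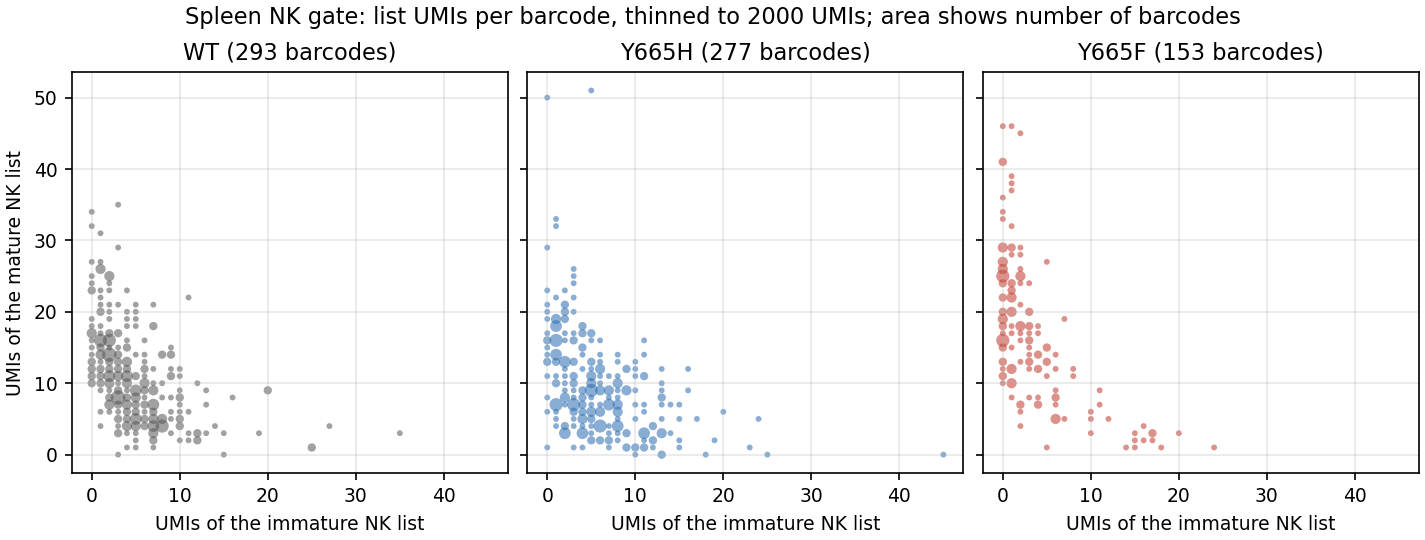
UMIs of the mature NK list (vertical) against UMIs of the immature NK list (horizontal) in the barcodes of the NK gate, thinned to 2000 UMIs, in 1 panel for each spleen library, with point area showing the number of barcodes at the same place. Y665F barcodes have a median of 16 mature-list UMIs where WT has 10, and their range overlaps that of the other libraries. The sums include the 5 mature-list genes past 2-fold higher in Y665F.

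In the Y665F gate, 77 barcodes had a Cx3cr1 UMI and 77 had none, and the 2 sets were compared within the library as a description, since they were defined by a measured gene. Those with Cx3cr1 held 1921 CPM of Gzmb and those without 854 CPM, while the WT barcodes without Cx3cr1 held 222 CPM. Bcl2 stood at 1048 and 934 CPM in the Y665F sets and at 410.0 CPM in the WT barcodes without Cx3cr1. Both genes were thus above WT in the Y665F barcodes with no detected Cx3cr1. Klrg1 stood at 308 and 116 CPM in Y665F, against 75.4 CPM in the WT barcodes without Cx3cr1, and Cma1 at 636 and 173 CPM, against 125 CPM. Without any barcode that had a Cx3cr1 UMI, a setting added after the values were seen, the log2 ratios of Y665F over WT were 1.90 for Gzmb, 1.17 for Bcl2, 0.56 for Klrg1, 0.44 for Cma1, 0.80 for Irf8 and -0.73 for Cd27. The median of the mature list was then -0.04 and that of the immature list 0.21, both of the opposite sign to the medians of the whole gate. Cx3cr1 is itself a mature-list gene, and this setting took out 77 of 154 barcodes in Y665F but 28 of 297 in WT. The change of both medians therefore follows in part from the selection and is no separate result.

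The same genes were followed in gates of B, CD8 T and CD4 T cells of the spleen, which share the libraries with the NK gate. These held 1439, 1901 and 716 B barcodes, 1583, 1180 and 1848 CD8 T barcodes and 1308, 1466 and 882 CD4 T barcodes in WT, Y665H and Y665F. For Bcl2 the Y665F log2 ratio was 1.28 in NK, 1.42 in CD8 T, 1.16 in CD4 T and -0.14 in B cells. Its direction in both T gates was that of NK cells. Cx3cr1 was at 3.0 in NK and at 0.17, 0.20 and -0.27 in CD8 T, CD4 T and B cells, and Irf8 at 1.34 in NK and at -0.09, -0.20 and 0.02. Gzmb was at 2.50 in NK, 0.99 in CD8 T and 2.57 in CD4 T cells, Ccl5 at 0.80, 1.78 and 0.83 and Klrg1 at 1.12, 0.14 and 1.47. Differences between gates were not tested, since each genotype had 1 library.

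**Figure D5:**
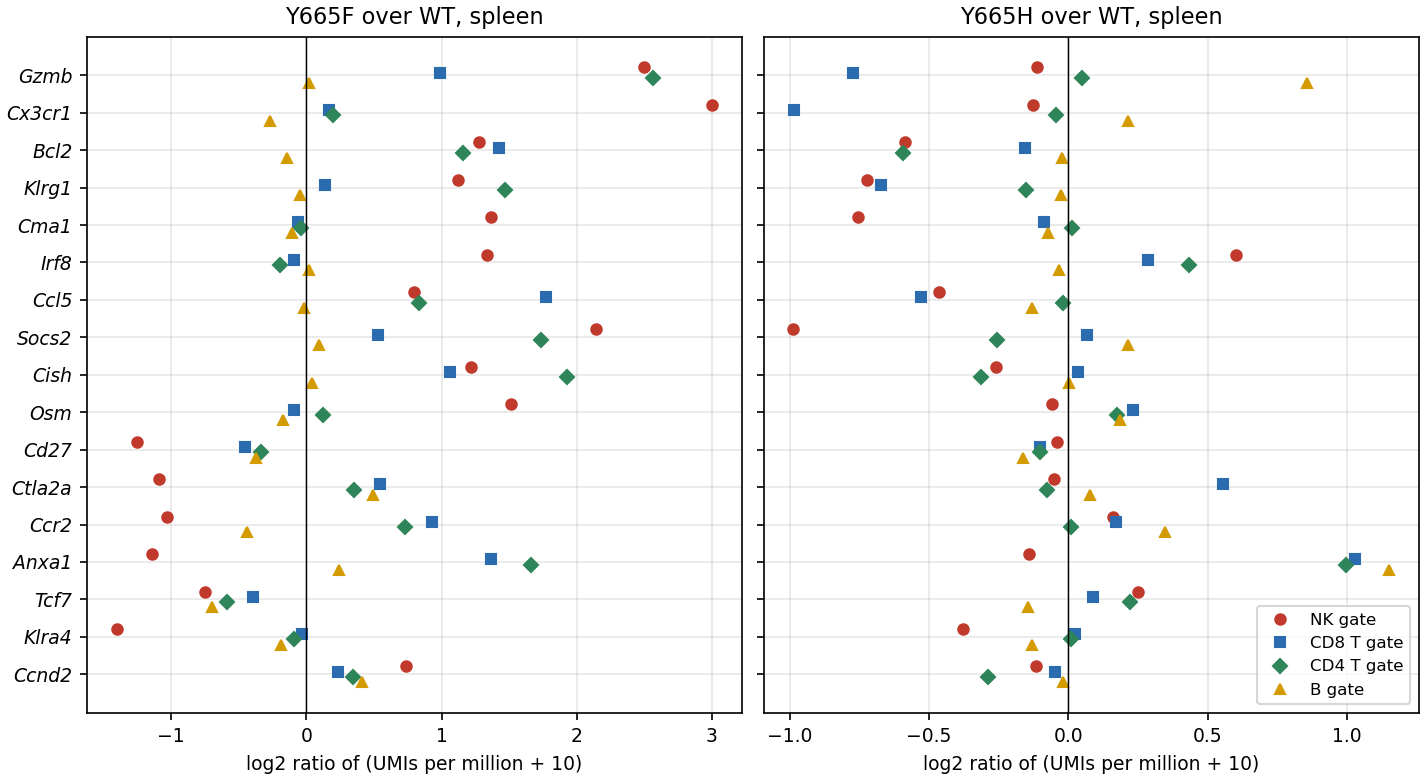
Log2 ratio of CPM + 10 for 17 genes in the NK, CD8 T, CD4 T and B gates of the spleen, Y665F over WT on the left and Y665H over WT on the right, on axes of different range. On the left Bcl2 lies above 1 in the NK, CD8 T and CD4 T gates and near 0 in B cells, while Cx3cr1 and Irf8 lie above 1 in the NK gate and near 0 in the other 3. Cx3cr1 was near the detection limit in B cells, where the added 10 CPM hold the ratio near 0.

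The same gate found few NK barcodes in the other tissues. Lymph node gave 76 in 7 libraries, from 0 to 25 each, and bone marrow 50 in 6 libraries, from 2 to 18 each. Only 2 lymph node libraries, both WT, reached 20 barcodes, so expression was not compared there. Bone marrow shares were 0.336% and 0.0972% in WT, 0.195% and 0.0381% in Y665H and 0.0178% and 0.0107% in Y665F (n = 2 libraries each). Both Y665F libraries were below the others, and with 2 libraries per group no exact test of Y665F against WT can reach 0.05 (two-sided exact permutation p = 0.333). The Y665F shares rest on 3 and 2 gated barcodes. The interval of Y665F replicate 1 (0.00368 to 0.0521) overlapped that of Y665H replicate 2 (0.0104 to 0.0974). In lymph node the shares were 0.585% and 0.253% in WT, 0.311%, 0.236% and 0.427% in heterozygous Y665F and 0% and 0.109% in homozygous Y665F. The library at 0% had 274 kept barcodes, where 3 counts would be a share of 1.09% and the upper end of the exact interval is 1.34%. The 0.427% is 1 of 234 barcodes. With at least 200 genes required, this library held 9 gated barcodes, the library at 0% held 5 and the other homozygous library 6 in place of 4.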

How the data were processed

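Per the labels and file headers, the authors made the deposited matrices of UMI counts per gene and barcode with Cell Ranger on mm10. The spleen headers name version 6.0.0 and the processing notes Cell Ranger 5.0 and Seurat 4.0. The labels name a 3′ kit and the methods of the study a 5′ kit. The authors' cell filters and doublet treatment are not given in the sources used here, and no doublet caller was run.

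Groups came from sample titles. Barcodes were gated on raw counts, and counts were summed per library and scaled to CPM of the gate. Genes with a mean of at least 50 CPM over the 3 libraries were compared by the difference of log2(CPM + 10), and a gene was called past 2-fold. With 1 library per genotype no p-value was computed. Ratio intervals are exact conditional binomial intervals without the pseudocount. Named genes were the 12 with the highest and the 12 with the lowest ratio past 2-fold in each mutant over WT, outside mitochondrial, immunoglobulin, T-cell receptor, hemoglobin and ribosomal genes and other cell types' markers, whose CPM in the higher library was at least 2 times that of its B cells. List members and Stat5a and Stat5b were also named. The members, gene lists and tests were chosen with earlier results of these data known, so their directions are not independent evidence. Shared 31-base words came from GENCODE vM21 transcripts, promoters from RefSeq. Scripts were tested on simulated data (pandas 2.3.3, scipy 1.17.1 and numpy 2.4.6 in Python 3.11.15). The deposited spleen libraries held 36889328 to 47206322 UMIs. Some genes are not reported here.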

Additional observations from a re-analysis of the deposited data

Results flagged for a closer look

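Values of 4 genes moved in opposite directions in the NK gate and in the CD8 T gate of the same libraries. With 1 library per genotype the differences were not tested. In Y665F over WT, Ccr2 had a log2 ratio of -1.03 in NK cells and 0.93 in CD8 T cells, where its level was 13.9 CPM in WT and 35.4 CPM in Y665F. Ctla2a had ratios of -1.09 and 0.55, with CD8 T levels of 137 and 204 CPM. Anxa1 had ratios of -1.14 and 1.37, with CD8 T levels of 2.10 and 21.2 CPM. RNA of other cells also differed between these libraries, and neutrophil markers summed to 33.1 CPM in WT and 826 CPM in Y665F B cells. The part of such RNA in the low CD8 T levels of Anxa1 was not tested. In Y665H over WT, Mki67 had a ratio of 1.80 in NK cells, from 79 UMIs of which 49 lay in 1 barcode, and of -0.51 in CD8 T cells.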

How the results depend on the processing

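Values were recomputed under 17 other settings, of which 3 were chosen after seeing the data, namely leaving out barcodes with myeloid or Cd74 RNA, cycling barcodes or barcodes with Cx3cr1. Of the recomputed gene ratios, 556 moved by at most the half-width of their counting interval, 64 by more, and 4 changed sign. The ratios of Bcl2 stayed between 1.17 and 1.39 and those of Gzmb between 1.90 and 2.77 in Y665F, while Cx3cr1 ran from 0 by construction, without its own barcodes, to 3.31. Beside Cx3cr1, Lgals3 and the cell cycle genes, these ratios past 2-fold fell short of it under at least 1 setting, with the weakest at -0.28 (Klra1), -0.66 (Ccr2), -0.88 (Anxa1), -0.59 (Ctla2a), -0.73 (Cd27), -0.97 (Camk2n1), 0.83 (Bcl2l11), 0.56 (Klrg1), 0.44 (Cma1) and 0.80 (Irf8) in Y665F and -0.91 (Klra9), -0.80 (Khdc1a) and 0.76 (Nrgn) in Y665H. The 4 reversals were Lgals3 in Y665H at -0.43 with Klrb1c in place of Ncr1 in the gate, at -0.36 with thinning before the gate and at -0.13 without myeloid or Cd74 barcodes, and Top2a in Y665F at -0.24 without cycling barcodes, which Top2a helped to define. NK shares became 3.26%, 2.48% and 2.59% (WT, Y665H and Y665F) with no Cd3 and no Cd79a UMI, 3.73% in Y665F at no more than 5% mitochondrial UMIs and 3.09% in Y665H when thinned before the gate. Counts past 2-fold were 3 higher and 7 lower in Y665H over WT with Klrb1c in place of Ncr1. With thinning before the gate they were 50 lower in Y665F over WT, 4 higher in Y665H over WT and 61 lower in Y665F over Y665H. Y665H over WT had 4 higher without barcodes over 3 times the median UMIs, 5 without myeloid or Cd74 barcodes, and 1 lower without Cx3cr1 barcodes. Y665F over WT had 14 higher without cycling barcodes, and Y665F over Y665H 18 higher by the mean of per-barcode CPM. At a mean of at least 20 CPM, which tests more genes, the higher and lower counts were 44 and 60 (Y665F over WT), 22 and 5 (Y665H over WT) and 51 and 75 (Y665F over Y665H), and with no filter 110 and 85, 61 and 5, and 99 and 153. The other causes were not tested.

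The spleen had 1 library per genotype and no pairs. In lymph node and bone marrow too few barcodes were gated for the planned expression fits, which were not run, with their alternatives (DESeq2, no filter, a replicate block, left-out replicates, a minimum of 200 genes). NK shares there were compared after seeing the data. Libraries were paired by the replicate number of their titles, and the labels do not say that equal numbers were processed together. With this number as a block the mutant minus WT difference was -0.100 (Y665H) and -0.202 (Y665F) percentage points in bone marrow and -0.145 (heterozygous Y665F, -0.0940 without the block) and -0.365 (homozygous) in lymph node, each with an exact permutation p of 0.5, the smallest that 2 such pairs allow. Leaving out each library gave -0.220 to 0.0191, -0.322 to -0.0829, -0.260 to 0.0724 and -0.531 to -0.198 in the same order, and both positive values arose without WT replicate 1. With 154 Y665F barcodes, genes under about 50 CPM were measured from few UMIs, and there is no replicate against which a difference between genotypes can be read.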

Other observations

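Other gene lists outside the comparisons above are given as values. Of 11 tested immediate early genes, none was past 2-fold in Y665F or Y665H over WT, with medians of -0.43 and -0.03. Egr1 had 34, 78 and 3 UMIs in WT, Y665H and Y665F, and Cd69, an early activation antigen, stood at 112, 171 and 53.8 CPM. All 8 tested heat shock genes had a log2 ratio above 0 in Y665F, as did 1329 of all 3307 genes, with a median of 0.36 against -0.06 over all genes and none past 2-fold, and Dnaja1 was highest at 299, 336 and 507 CPM. Among 12 tested glycolysis genes, Ldha stood at 147, 252 and 229 CPM and Eno1 at 178, 182 and 283 CPM, and none was past 2-fold. The 5 tested interferon-induced genes had medians of -0.03 in Y665F and 0.00346 in Y665H.

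S100a6, chosen after its values were seen, stood at 477, 601 and 1180 CPM, a log2 ratio of 1.29 in Y665F. The genes Tmem176a and Tmem176b of the type 1 innate lymphoid list had 27, 33 and 49 and 36, 20 and 40 UMIs, raw intervals of the Y665F log2 ratio running from 1.08 to 2.52 and from 0.39 to 1.77.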
